A study of Populus trichocarpa with 18 samples.

Results

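Region 2 of differentiating xylem was compared between tension wood and normal wood of Populus trichocarpa (black cottonwood). The comparison used 6 of the 18 libraries of the series, chosen by their labels: 3 biological replicates of tension wood and 3 of normal wood. Both woods came from wild-type trees, 5 to 12 months old, raised from branch cuttings in a glasshouse or growth chamber. For tension wood, stems were kept bent for 21 days. The sources used here do not say whether normal wood came from unbent trees, or how many trees entered a pool. Debarked stems were cut into sections of 16 µm, and bands of xylem were isolated by laser. Each band was 3 mean fibre widths across. About 1600000 µm2 of a band was pooled into 1 replicate, so a library can mix fibres, vessel elements and rays. Nor do these sources say how far Region 2 lies from the cambium.

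Tension wood forms on the upper side of a leaning broadleaf stem and pulls it upright. Its fibres lay down an inner wall layer that is rich in cellulose and poor in lignin, often called the gelatinous layer. Cellulose is spun at the plasma membrane by complexes of cellulose synthases that draw on UDP-glucose and are guided by cortical microtubules. Lignin is made from monolignols, which arise from phenylalanine through a chain of ammonia removal, ring hydroxylation, methylation and reduction.

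Counts in Region 2 were 39139, 56458 and 39391 in the tension libraries, against 20080, 8852 and 7427 in the normal libraries. A mean of 4662 ± 207 genes had a count in tension wood and 2385 ± 707 in normal wood (SD, n = 3 each). The files pair no identifier with a gene name, and the reference table matched 0 of 11294 identifiers. Gene groups are therefore lists of 60 poplar identifiers written from recall of published gene models, and their membership was not checked against an annotation. Of these 60, 52 (86.7%) are listed in either table and 32 were abundant enough to test. Here 3 groups were taken as marks of differentiating xylem: secondary wall cellulose synthases, fasciclin-like proteins and monolignol enzymes. Each had counts in each of the 6 libraries, though the cellulose synthases had only 26, 18 and 8 in normal wood. Laccases, another mark of this tissue, were left out. Markers of vessel elements, cambium, phloem and bark needed gene descriptions and were not analysed here.

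The woods stood apart before any single gene was considered. Libraries were correlated (Spearman) over the 4347 shared genes, with a median of 0.860 within tension wood and 0.596 within normal wood. Between a tension and a normal library it ranged from 0.0794 to 0.106. Over the tested genes alone, Pearson correlations of log2 CPM between the woods were negative, from -0.42 to -0.38. The filter described below kept 265 of these genes through tension wood alone and 312 through normal wood alone. That selection itself lowers these Pearson values. All are correlations across genes, which are not independent replicates. Each table holds 1 wood, so the wood cannot be told apart from separate preparation, sequencing or counting. Genes listed only in the table of their own wood made up 13.2% ± 0.377 of the tension counts and 7.44% ± 0.241 of the normal counts (SD, n = 3 each).

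Of the 798 genes tested by the quasi-likelihood test of edgeR, 704 (88.2%) differed at an adjusted p under 0.05. Those higher in tension wood numbered 365 (45.7%), and 339 (42.5%) were lower. This balance turned with the scaling of the same genes. When libraries were scaled to all their counts, 328 were higher and 382 lower. Scaled to their totals over the tested genes alone, 354 were higher and 366 lower. Differences were large: 259 genes were called with a log2 fold change over 3 and 246 with one under -3. On TMM-scaled CPM the 3 tension libraries did not overlap the 3 normal libraries in 705 genes (88.3%), with tension wood higher in 46.6% and lower in 41.7% of all tested genes. The median over all tested genes was 0.43, and lists below are set beside that value and those shares. It holds for this filter alone: with a minimum count of 3 the median was 2.37 (1972 genes), with no filter 1.27 (4111 genes) and with a minimum count of 30 it was -0.85 (243 genes). With so many genes called, a called gene is the usual case in this comparison.

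Most tested genes were abundant in 1 wood only. CPM are counts scaled to a common library total, and the filter asked for at least 379.9 CPM of shared-gene counts in 3 libraries. This threshold was reached in all tension and no normal libraries by 265 genes, of which 265 were called higher. It was reached in all normal and no tension libraries by 312 genes, of which 306 were called lower. Genes of these kinds passed the filter only through the wood in which they are high, so a difference is built into them. In the 82 genes that reached it in all 6 libraries, 32 were higher, 11 were lower and 39 were not called, with a median log2 fold change of 0.47. In the other 139 genes, which reached it in other mixes of libraries, 68 were higher, 22 were lower and 49 were not called.

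**Figure D1:**
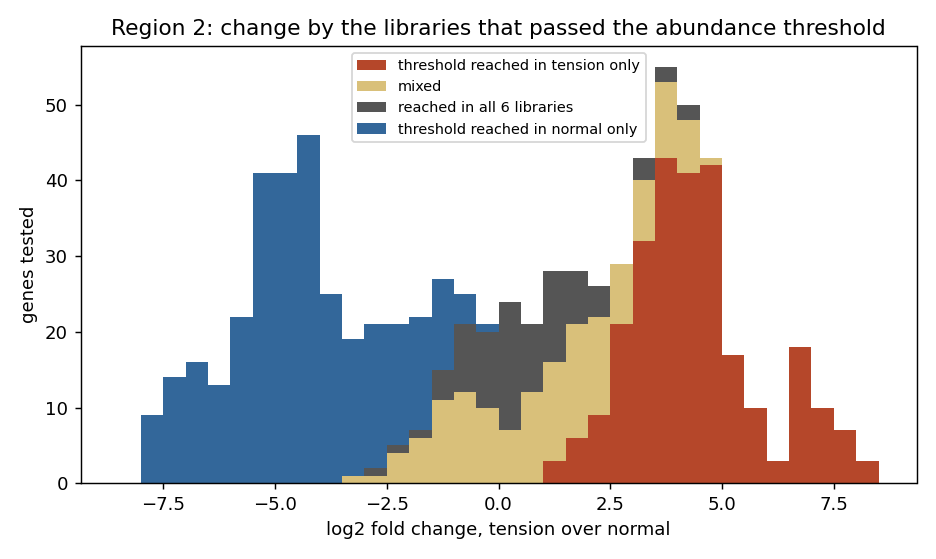
Histogram of log2 fold changes (tension over normal, TMM scaling) of the 798 tested genes, stacked by the libraries in which the abundance threshold was reached. The 265 genes of tension wood alone lie to the right and the 312 genes of normal wood alone to the left. The 82 genes that reached it in all 6 libraries (-2.67 to 4.07) and the 139 mixed genes (-3.45 to 4.60) lie between and overlap both.

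The scaling sets where zero lies. Trimmed mean (TMM) factors were 0.825, 0.829 and 0.837 in tension libraries and 0.856, 1.36 and 1.5 in normal libraries, so the shallower normal libraries had the higher factors. These factors apply to library totals over the tested genes. On those totals without TMM, the median of all tested genes was -0.02, a shift of -0.45. Scaled instead to all counts of each library without TMM, that median was -0.39, a shift of -0.81. Of 704 calls, 667 kept their direction and call under that scaling. TMM values and those scaled to all counts are given below where they part. Levels are CPM of all counts of a library, without TMM, and overlap is judged on them from here on.

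Secondary wall cellulose synthases had 4 tested members, and all 4 rose in tension wood, against 45.7% called higher over all genes. The median change was 3.77 on the log2 scale, or 3.00 scaled to all counts. Over all genes these medians were 0.43 and -0.39. The member with the most counts had 5979, 6004 and 6245 CPM in tension wood, against 747, 452 and 539 CPM in normal wood. The groups did not overlap, and the log2 fold change was 4.07 (SE 0.39, adjusted p = 1.1e-10). It was 4.76 without normal replicate 1.

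The second had 1456, 1594 and 1980.1 CPM in tension wood and 199, 226 and 135 CPM in normal wood. Its log2 fold change was 3.87 (SE 0.48, adjusted p = 8.6e-09), and the groups stood well apart. The third averaged 870.0 ± 176 CPM in tension wood and 144 ± 113 CPM in normal wood (SD, n = 3 each), with a log2 fold change of 3.67 (adjusted p = 1.7e-06). The fourth had the smallest change of the list, 2.27 (SE 0.45, adjusted p = 2.1e-05). Its normal libraries were uneven, at 299, 1243 and 135 CPM, against 1277, 1718 and 1193 CPM in tension wood. Normal replicate 2 therefore lay within the tension range, and the value was 3.12 without it. Among these members, those at 3.87 and 3.67 reached the abundance threshold in tension wood alone. A difference is built into both, so their calls add little to the count of members that rose. The untested member had 7, 15 and 14 counts in tension wood and 0 in each normal library, at least 3.23-fold higher on a floor of 3 counts over the normal group.

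As a list, the 5 identifiers took 0.971%, 1.03% and 1.08% of the counts of tension libraries, against 0.129%, 0.203% and 0.108% in normal libraries. The ratio of the means was 7.0. In pooled tissue, more cells of a type and more RNA per cell cannot be told apart.

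**Figure D2:**
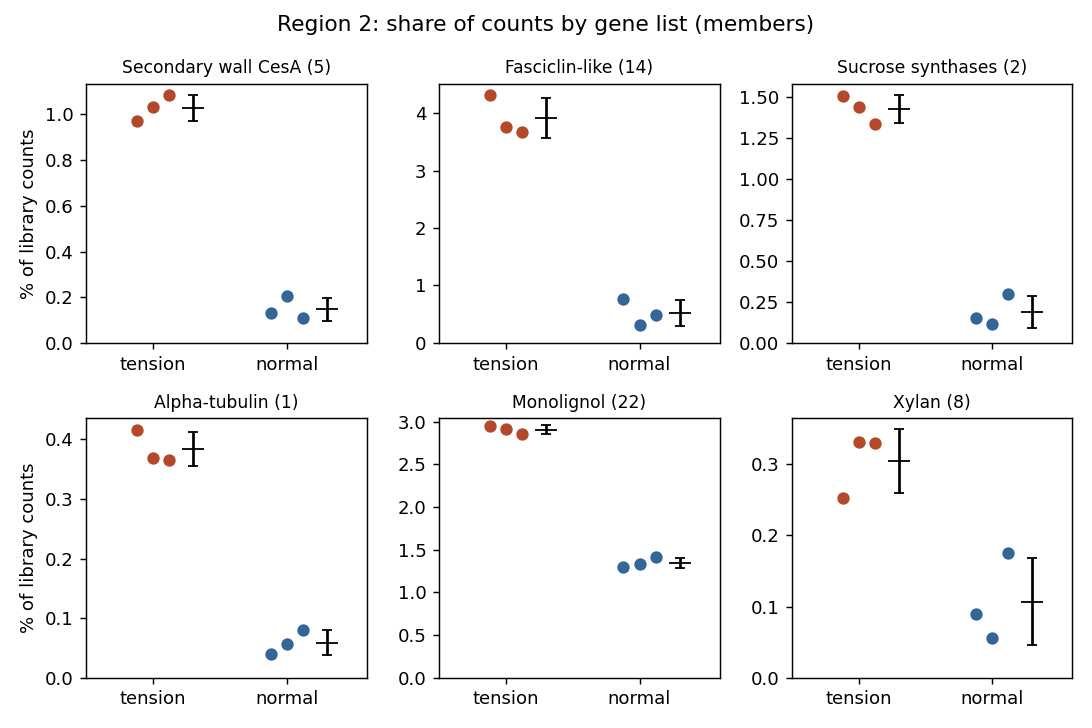
Share of library counts taken by 6 gene lists in Region 2, with 3 tension and 3 normal libraries as points and the mean with SD beside them (number of list members in brackets). In each panel every tension library lies above every normal library, by a ratio of means of 7.0 for cellulose synthases and 2.15 for monolignol genes.

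Sucrose synthases cleave sucrose into fructose and UDP-glucose, the substrate of cellulose synthesis. The member with more counts of the 2 had 14691, 13886 and 12592 CPM in tension wood, against 1345, 1129.7 and 2289 CPM in normal wood. Its log2 fold change was 4.0 (SE 0.41, adjusted p = 2.1e-10), or 3.18 scaled to all counts. The other member had 332, 461 and 736 CPM in tension wood and 149, 0 and 673 CPM in normal wood. These groups overlapped on CPM. The log2 fold change of 1.94 (adjusted p = 5.2e-03) became 1.16 scaled to all counts and was then not called (adjusted p = 0.058). It was 2.89 without normal replicate 3 and 1.35 without tension replicate 3.

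The alpha-tubulin identifier, for a subunit of the microtubules that guide cellulose synthases, had 4165, 3684 and 3656 CPM in tension wood. It had 398, 565 and 808 CPM in normal wood. The groups did not overlap, and the log2 fold change was 3.64 (SE 0.37, adjusted p = 2.1e-10), or 2.84 scaled to all counts.

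Fasciclin-like arabinogalactan proteins are glycoproteins of the cell surface that developing fibres make. The 8 tested members all rose in tension wood, against 45.7% called higher over all genes. Their median was 3.73 on the log2 scale, against 0.43 over all genes. The list median was 3.66 when the bound replaced the fitted value of the member with no normal counts. The list of 14 identifiers made up 4.31%, 3.76% and 3.67% of the tension counts and 0.772%, 0.316% and 0.485% of the normal counts. The member with the most counts had 25959, 20741 and 18253 CPM in tension wood, against 4333, 904 and 1885 CPM in normal wood. Every tension library lay above every normal one, and normal replicate 1 was the highest of its group. The log2 fold change was 3.77 (SE 0.49, adjusted p = 2.7e-08), and 5.14 without that library.

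Members of this list were uneven in size of change. The smallest was 1.53 (adjusted p = 1.2e-04), in a gene with 1942, 1878 and 2006 CPM in tension wood and 1295, 791 and 1346 CPM in normal wood. Scaled to all counts it was 0.73 (adjusted p = 0.014), and it was not called with no filter (0.71, adjusted p = 0.090) or in thinned libraries (0.70, adjusted p = 0.118). A second member with 1303, 1771 and 1193 CPM in tension wood had 49.8, 113 and 0 CPM in normal wood, or 2 counts in all. Its fitted change was 5.33 (adjusted p = 4.0e-09). Another had 2351, 2533 and 3072 CPM in tension wood and 199, 226 and 269 CPM in normal wood, a change of 4.34 with even replicates in both woods. The last 3 tested members besides these and the one at 0 changed by 3.33, 3.53 and 3.69. Without normal replicate 1, those of 3.33 and 3.53 became 4.0 and 4.29. The members at 5.33 and 4.34 and the one with no normal counts reached the abundance threshold in tension wood alone. A difference is built into these. Below the filter, 3 more members were listed, with 31, 48 and 19 counts over the tension libraries and 2, 2 and 0 over the normal libraries.

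**Figure D3:**
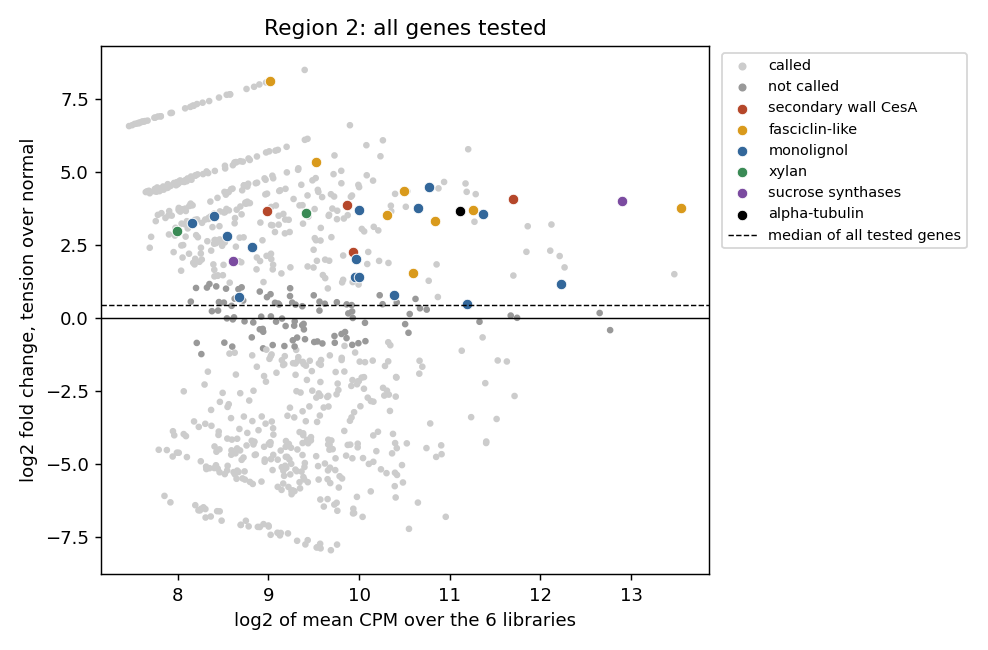
Log2 fold change (tension over normal, TMM scaling) of each of the 798 tested genes against the log2 of its mean CPM over the 6 libraries, with list members in colour and the median of all genes (0.43) dashed. List members lie at or above the dashed line; the slanted rows of points at the top and bottom are genes at or near 0 counts in 1 wood.

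In the monolignol list 13 of 15 tested members rose and 2 did not pass, against 45.7% called higher over all genes. The median was 2.41, against 0.43 over all genes. Scaled to all counts, 9 rose, against 328 of 798 over all genes, and the median was 1.63, against -0.39. With a minimum count of 3, 15 of 19 rose, against 1196 of 1972 over all genes. The median was then 2.16, against 2.37 over all genes. The list of 22 identifiers took 2.95%, 2.92% and 2.85% of tension counts, against 1.30%, 1.33% and 1.41% of normal counts. The ratio of 2.15 hid a wide range between enzyme families. Family names below are those under which the identifiers were recalled. A tested member outside these families had 4343, 4942 and 4544 CPM in tension wood. In normal wood it had 747, 339 and 943 CPM, and its log2 fold change was 3.54 (adjusted p = 5.9e-10).

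Phenylalanine ammonia-lyase (PAL) removes ammonia from phenylalanine at the entry of the pathway. All 3 tested members rose, by 3.70, 3.26 and 2.82 on the log2 scale. The one with the most counts had 1891, 1754 and 1574 CPM in tension wood and 49.8, 339 and 539 CPM in normal wood (SE 0.48, adjusted p = 1.9e-08). The second value was 3.97 without normal replicate 1. The members at 3.26 and 2.82 reached the abundance threshold in tension wood alone. The 5 PAL identifiers made up 0.317%, 0.312% and 0.330% of the tension counts and 0.0349%, 0.0565% and 0.108% of the normal counts.

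Cinnamate 4-hydroxylase (C4H), the first ring hydroxylase, had both members higher, by 3.74 and 3.49. The first had 3475, 3064 and 2285 CPM in tension wood, against 598, 226 and 0 CPM in normal wood (adjusted p = 8.0e-09). Its normal counts of 12, 2 and 0 differed widely, and its change was 5.65 without normal replicate 1. The second had 562, 567 and 609 CPM in tension wood and 49.8, 113 and 135 CPM in normal wood (adjusted p = 1.8e-05). This second member reached the abundance threshold in tension wood alone, so a difference is built into it.

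The steps that follow had smaller estimates. The tested 4-coumarate:CoA ligase (4CL), which activates the acid as a CoA ester, had 1149.7, 1506 and 1269 CPM in tension wood. In normal wood it had 1245, 1356 and 1481 CPM, so the groups overlapped on CPM. Its TMM change of 0.80 was called (adjusted p = 0.030), but scaled to all counts it was -0.019 (adjusted p = 0.950). Leaving out any tension library, normal replicate 2 or normal replicate 3 also ended the call (adjusted p from 0.051 to 0.440). The other 4CL identifier, below the filter, ran against the rest of the list, with 1, 0 and 0 counts in tension wood and 9, 2 and 4 in normal wood.

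Hydroxycinnamoyltransferase (HCT), which forms the shikimate ester, had 383, 443 and 330.0 CPM in tension wood and 398, 226 and 673 CPM in normal wood in its tested member. It was not called (log2 fold change 0.70, SE 0.53, adjusted p = 0.210; -0.089 scaled to all counts). The other HCT member, below the filter, had 7, 16 and 12 counts in tension wood and 1, 0 and 0 in normal wood. Coumarate 3-hydroxylase (C3H), which works on that ester, had 1277, 1293 and 1244 CPM in tension wood, against 996, 678 and 673 CPM in normal wood. Its change of 1.40 was called (adjusted p = 1.2e-03), was 2.05 without normal replicate 1, and was 0.61 and not called scaled to all counts (adjusted p = 0.084).

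Caffeoyl-CoA O-methyltransferase (CCoAOMT), the first methylation step, had the member with the most counts at 1788, 1878 and 2132 CPM in tension wood and 1594, 3276 and 3366 CPM in normal wood. These overlapped on CPM, and it was not called (log2 fold change 0.47, SE 0.30, adjusted p = 0.135; -0.39 scaled to all counts). The other members rose by 1.41 and 2.41. For the member at 1.41, normal replicate 1 lay within the tension range, with 894, 1417 and 1549 CPM in tension wood and 1245, 565 and 269 CPM in normal wood. Its change was 2.72 without that library and 0.64, not called, scaled to all counts (adjusted p = 0.074). As a family, CCoAOMT made up 0.390% ± 0.0417 of the tension counts and 0.366% ± 0.0628 of the normal counts (SD, n = 3 each), with overlap.

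Both members of the next family had larger estimates than 4CL, HCT and C3H. Ferulate 5-hydroxylase (F5H), the hydroxylase of the branch to syringyl units, had a member at 3398, 3117 and 3275 CPM in tension wood, against 249, 339 and 135 CPM in normal wood. The change was 4.48 (SE 0.42, adjusted p = 7.3e-11). This gene reached the abundance threshold in tension wood alone, so a difference is built into it. Its other member changed by 2.03 (adjusted p = 2.9e-05), or 2.90 without normal replicate 1.

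The reductions at the end of the pathway were mixed. Cinnamyl alcohol dehydrogenase (CAD), the last step, had 6004, 4534 and 5357 CPM in tension wood, against 3934, 4519 and 4443 CPM in normal wood. The lowest tension library lay just above the highest normal one. The change of 1.16 was called (adjusted p = 9.2e-04), but it was 0.32 and not called scaled to all counts (adjusted p = 0.156). Cinnamoyl-CoA reductase (CCR), the step before it, was below the filter. It had 23, 18 and 12 counts in tension wood and 0 in each normal library, at least 4.76-fold higher. The 2 caffeoylshikimate esterase (CSE) identifiers had 25 counts in tension wood and 2 in normal wood together, too few to test. The differences between enzyme families were not themselves tested.

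**Figure D4:**
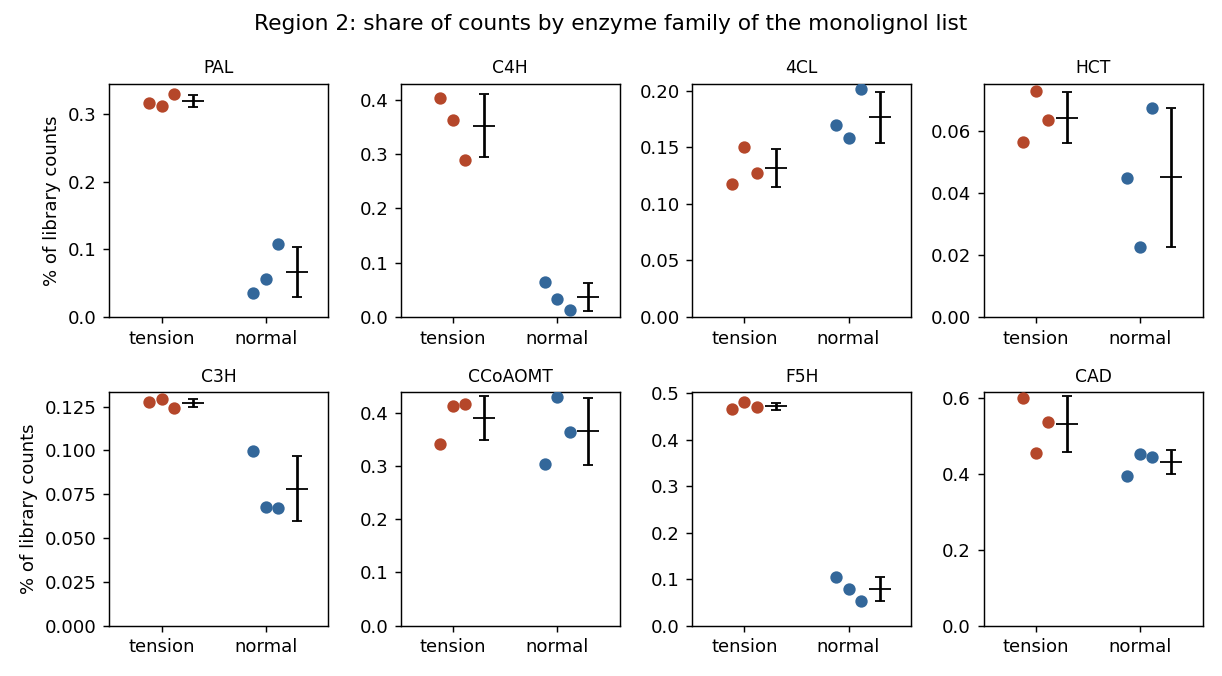
Share of library counts taken by 8 enzyme families of the monolignol list in Region 2, with 3 tension and 3 normal libraries as points and the mean with SD beside them. PAL, C4H and F5H stand apart between the woods, whereas CCoAOMT and HCT overlap. The 4CL share lies lower in tension wood, and the TMM change of its tested member is 0.80.

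Xylan is the main hemicellulose of hardwood cell walls. Both tested members of the xylan list rose, by 3.58 (adjusted p = 4.8e-07) and 2.98 (adjusted p = 2.7e-04). Over all genes 45.7% were called higher and the median was 0.43. The first had 1048, 1239.9 and 1269 CPM in tension wood and 149, 0 and 404 CPM in normal wood. The second had 409, 443 and 355 CPM in tension wood, against 49.8, 0 and 269 CPM in normal wood, and its change was 4.01 without normal replicate 3. This second member reached the abundance threshold in tension wood alone, so a difference is built into it. Of the 5 other listed members, all below the filter or in 1 table, 4 had more CPM in tension wood. The other had 153, 177 and 254 CPM in tension wood and 598, 339 and 673 CPM in normal wood, the opposite order with no overlap. The 8 xylan identifiers made up 0.305% ± 0.0449 of the tension counts and 0.107% ± 0.0612 of the normal counts (SD, n = 3 each).

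No member of the secondary wall NAC list, transcription factors that switch on fibre and vessel wall programmes, passed the filter. Only 1 of 8 had more than 2 counts in a wood. It had 4, 6 and 4 counts in tension wood and 6, 8 and 4 in normal wood, or 102, 106 and 102 CPM against 299, 904 and 539 CPM. The groups did not overlap on CPM, and this gene was not tested. The 8 identifiers made up 0.0120% ± 0.00278 of the tension counts and 0.0614% ± 0.0261 of the normal counts (SD, n = 3 each), on 4 to 8 counts a library.

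**Figure D5:**
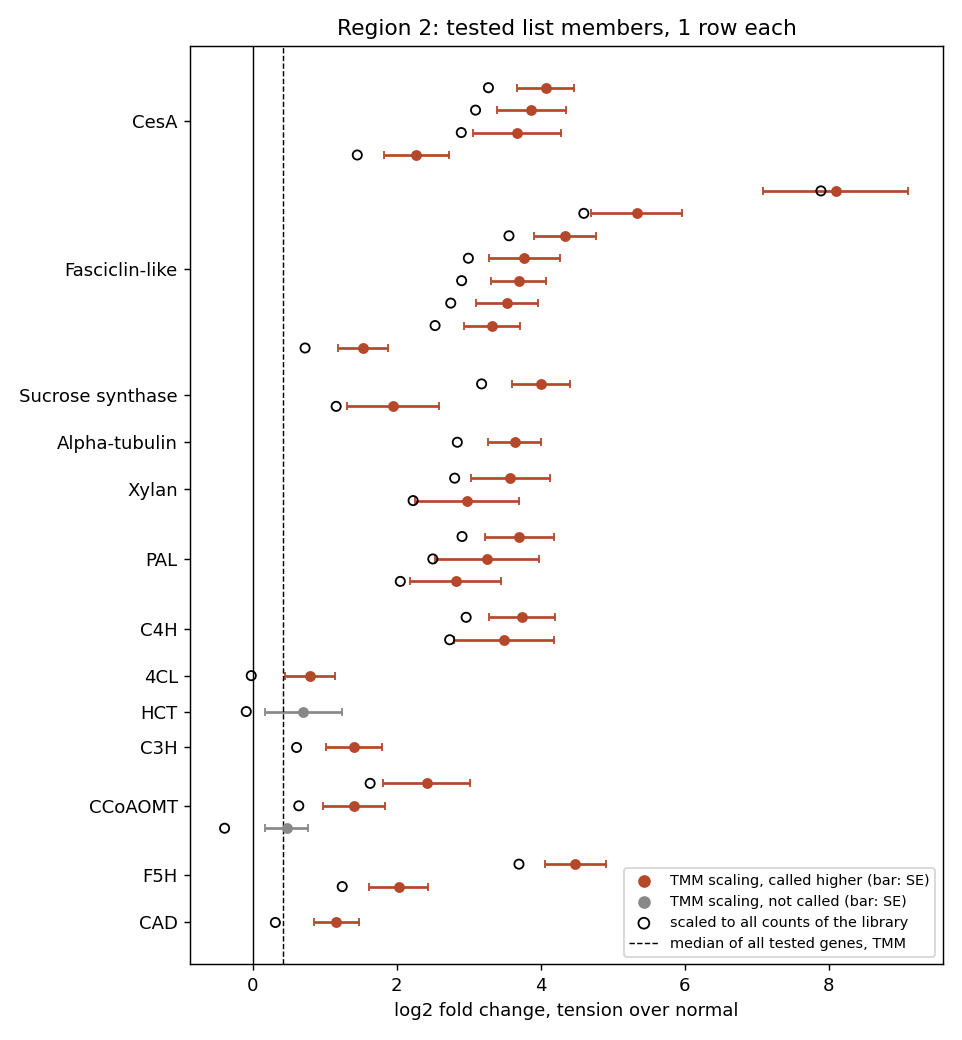
Log2 fold change (tension over normal) of the tested list members of Region 2 in the lists and families named above, 1 row each, grouped by list or enzyme family. Filled points with SE bars are TMM values (red where called, grey where not), open circles are values scaled to all counts, and the dashed line is the median of all genes, 0.43; the 4CL, HCT and lowest CCoAOMT circles lie below zero.

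Over all lists, 30 of 32 tested members rose and 0 fell, against 45.7% higher and 42.5% lower over all genes. Scaled to all counts, 25 of 32 rose and 0 fell, against 328 higher and 382 lower of the 798 genes. The direction of these members was known from earlier results, so the count is a description. Of the 32, 10 reached the abundance threshold in tension libraries alone, so a difference is built into them. Another 10 reached it in all 6 libraries, and 0 in normal libraries alone. The lists hold genes chosen for fibre walls, and none was drawn up for normal wood.

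The largest fitted differences were in genes at 0 counts in 1 wood. Potri.003G143200.v4.1 had 59, 75 and 48 counts in tension wood and 0 in each normal library. It was at least 16.3-fold higher, on a floor of 3 counts over the normal group (adjusted p = 1.8e-09). Potri.013G151300.v4.1, also a member of 1 of the lists, had 48, 52 and 38 counts in tension wood and 0 in normal wood, at least 12.4-fold higher (adjusted p = 1.5e-08). In the other direction, Potri.003G070600.v4.1 had 0 counts in each tension library and 33, 15 and 12 in the normal libraries, or 1643, 1695 and 1616 CPM.

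It was at least 74.3-fold lower in tension wood (adjusted p = 3.3e-09), and its normal replicates were close together. Potri.016G138600.v4.1 had 0 counts in each tension library and 35, 12 and 11 in the normal libraries, at least 71.8-fold lower (adjusted p = 5.7e-09). In all, 37 tested genes had 0 counts in normal wood and 36 had 0 counts in tension wood. The 3 tension totals sum to 134988 counts, against 36359 in normal wood, so 0 counts sets a lower limit in tension wood.

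The most abundant genes of each wood were largely different genes, chosen here by their own level. Of the 100 most abundant genes of each wood, 18 (18% of each list) were shared. The 100 of tension wood made up 29.0% of the tension counts and 10.4% of the normal counts. The 100 of normal wood made up 11.2% of the tension counts and 28.7% of the normal counts. All 10 leading genes of tension wood were called higher there. Of the 10 leading genes of normal wood, 7 were called lower in tension wood, 1 was called higher and 2 were not called.

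A small set was not separated. The 94 genes not called had log2 fold changes from -1.23 to 1.16. For 10 of them, the estimate and 2 SE on either side stayed within 1 of zero on the log2 scale. For the other 84 that interval reached past 1, so at this depth they are not shown to be alike in the woods. The median SE of the genes not called was 0.49.

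The change between woods in Region 2 was set against that in the other collected bands, in 1 fit over all 18 libraries. By the edgeR test of the difference, 0 of 573 genes (0%) differed between Region 2 and Region 1, with 56 at an unadjusted p under 0.05. Against Region 3 it was also 0 of 573 (0%), with 69 at an unadjusted p under 0.05. The smallest adjusted p was 0.202 against Region 1 and 0.118 against Region 3. Single genes had a median SE of 0.91 and 1.10 in these tests, so small differences were not detectable. Some large estimates were not called either. A gene at -4.57 against Region 1 and another at 4.66 against Region 3 each had an adjusted p of 0.31. The absence of calls therefore does not show that the bands share the same change. Among list members tested, the difference (change in Region 2 minus change in Region 1) had a median of 0.13 for the 4 cellulose synthases, -0.26 for 11 monolignol genes and -0.49 for 8 fasciclin-like genes. All genes had a median of -0.43. The differences from Region 3 were 0.83, 0.64 and 0.61 for these lists, against 0.75 for all genes.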

How the data were processed

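The authors deposited raw counts, whole numbers for each gene, with a separate table for each wood. UMI-tools, STAR and featureCounts are named in the submitters' processing notes, with no versions or settings. Libraries were 3′ tag libraries (QIAseq UPX), per the labels' protocols. Not given in the sources used here are the genome build and whether counts are reads or distinct molecules, so floors cover counting error only. Replicates are separate pools, and p-values measure the spread between them. No libraries were identical.

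Genes in both tables were tested with edgeR 4.0.16 in R 4.3.3: filterByExpr with a minimum count of 10, TMM, glmQLFTest and Benjamini-Hochberg adjustment over all 798 genes. SE is the log2 fold change over the square root of F. A difference between regions was fitted over 18 libraries with 6 replicate blocks. The method was tested on simulated data in which a fixed set of genes changed, as many up as down, and the rest stayed alike. Most tested genes differed in the real data, so the simulation does not bear on the choice of scaling.

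Members, lists and tests were chosen with earlier results of these data known. Identifiers had no descriptions, so by the fallback in the naming rule 2 that rose most and 2 that fell most are printed, and list members are given without them. No p is given for list shares, since 3 libraries against 3 cannot go below 0.1. Near-identical gene copies can share tags. DESeq2 1.42.0 and other scalings, filters, thinning and left-out libraries were alternatives. Some list members are given in totals only.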

Additional observations from a re-analysis of the deposited data

How the results depend on the processing

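The count of 704 calls was 686 with the replicate block and 702 to 710 with a library left out (same genes tested). It was 697 with DESeq2 and 710 scaled to all counts, an alternative chosen after seeing the data. It moved with the genes tested: 1681 of 1972 at a minimum count of 3 (71.1% higher, against 51.8% in the main test), 1735 of 4111 unfiltered, 230 of 243 at a minimum count of 30, and 123 of 136 thinned to the smallest total (42.3% higher). No called gene was called in the opposite direction in these or the other alternatives. The same replicate number did not pair the woods (correlations of deviations 0.0095, -0.0235 and 0.0565), so the block is no paired result; it ended the 4CL call (adjusted p = 0.089).

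Thinning left 5 fasciclin-like, 3 monolignol, 2 cellulose synthase, 1 sucrose synthase and 1 xylan member called higher. Over all lists, 13 of 17 tested members were then called higher and 1 lower, against 52 higher and 71 lower of 136 genes. The xylan list had 5 called higher at a minimum count of 3, 4 unfiltered, and 1 at a minimum count of 30 or with all 18 libraries fitted. For sucrose synthases it was 1 in those last 2, unfiltered, and scaled to all counts. Over all genes, 1196 of 1972 were called higher at a minimum count of 3 and 973 of 4111 unfiltered. It was 105 of 243 at a minimum count of 30 and 229 of 573 with all 18 libraries fitted. Against counts of shared genes alone, the share differences were 0.378 (tubulin), 3.94 (fasciclin-like), 1.89 (monolignol), 1.03 (cellulose synthases) and 1.44 (sucrose synthases) percentage points.

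Among the list members and identifiers described, signs turned for 3 genes. 4CL was -0.034 unfiltered, -0.20 thinned and -0.019 scaled to all counts. HCT was -0.12 unfiltered and -0.089 scaled to all counts. The CCoAOMT member with the most counts was -0.022 on totals of the tested genes without TMM, -0.42 unfiltered and -0.39 scaled to all counts. Thinned, it was -0.87 and called lower (adjusted p = 0.020). RLE scaling and the fit of 18 libraries called it higher (0.71 and 1.17). The causes were not tested. At a total of 7427, 3 counts are 404 CPM, which limits low genes in normal wood.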
